A study of Mus musculus with 32 samples.

Results

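Hepatic gene expression was compared between mice fed a MCD diet and mice fed a chow diet when both groups received Fc-GLP-1, in liver tissue taken before partial hepatectomy (PH). The 2 groups were M+Fc-GLP-1 and C+Fc-GLP-1, chosen by their labels, with 4 arrays each, which makes 8 of the 32 arrays of the series. The remaining arrays hold C and MCD mice without the drug before PH and all 4 groups 2 weeks after PH. All mice were male C57/BL6, 8 weeks old when the diets began. The MCD diet lacks methionine and choline and is used as a model of non-alcoholic steatohepatitis (NASH). M+Fc-GLP-1 mice received it for 3 weeks and were injected with Fc-GLP-1 for the last 2 weeks, C+Fc-GLP-1 mice received chow and the same injections, and the untreated groups were injected with saline. Fc-GLP-1 is a GLP-1 peptide fused to an antibody Fc part, which prolongs its action on the GLP-1 receptor. The sample source names give Fc-GLP-1 as the agent, whereas the descriptions and the growth protocol of the same samples name an agonist that acts on both the GLP-1 receptor and the glucagon receptor, given at 4.4 mg/kg/day. The groups are named here after Fc-GLP-1. The hour at which livers were taken and the feeding state are not given in the sources used here. The comparison describes how the liver transcriptome differed between the diet groups in the presence of the drug.

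Both groups were hybridised on 1 slide, with 1 liver RNA per array and a single Cy3 label. Values are log2 signals relative to the 75th percentile of the same array, so that a log2 signal of 0 equals that percentile. Between 43.1% and 47.9% of probes in the C+Fc-GLP-1 arrays and between 35.9% and 51.1% in the M+Fc-GLP-1 arrays were well above background. The lowest value belonged to M+Fc-GLP-1 replicate 2, which also lay apart on the second principal component (14.8% of the variance), while the first (38.2%) separated the diets. The labelled tissue was checked by 15 hepatocyte markers and liver transcription factors, whose mean log2 signal per array lay between 5.20 and 5.97 in C+Fc-GLP-1 and between 5.53 and 5.65 in M+Fc-GLP-1 mice. Only Foxa1 of these passed the test between the groups (fell by 1.52 on the log2 scale), and not without any one of C+Fc-GLP-1 replicates 1, 3 and 4 or M+Fc-GLP-1 replicates 2, 3 and 4 (adjusted p between 0.0515 and 0.126). In RNA of whole liver, fewer cells of a type and less RNA per cell cannot be told apart.

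The liver makes fatty acids from sugar through SREBP1c and its target enzymes, burns them through enzymes controlled by PPARα, and stores the surplus in droplets coated with perilipins and CIDE proteins. Choline and methionine supply phosphatidylcholine, which is needed to export fat as VLDL, and their absence from the diet leads to steatosis. Many hepatic genes differ between the sexes under the control of the growth hormone secretion pattern, and others oscillate over the day under the CLOCK and BMAL1 transcription factors.

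Of 21012 genes tested with limma, 2175 passed an adjusted p of 0.05 between M+Fc-GLP-1 and C+Fc-GLP-1 mice, which is 10.4% of the genes. Among them 1121 genes (5.34%) rose and 1054 (5.02%) fell with the MCD diet. The median size of these differences was 1.32 on the log2 scale. At least 2-fold differences were seen for 887 genes that rose and 771 that fell, and at least 4-fold differences for 228 and 173. All arrays of one group lay above all arrays of the other for 1746 of the 2175 genes, and for 3249 (15.5%) of all genes tested. The balance of the 2 directions depends on the reference chosen within each array: over all genes the median difference was 0.03, and when arrays were centred on their median it was -0.22, with 611 genes higher and 1894 lower.

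The genes with the largest increases were led by enzymes of drug, steroid and lipid metabolism. Sult1e1, the estrogen sulfotransferase, lay at 3.82, 5.47, 4.85 and 3.49 in the M+Fc-GLP-1 arrays and at -4.60, -3.21, -3.16 and -1.28 in the C+Fc-GLP-1 arrays, and Cidec, a droplet protein that promotes the fusion of lipid droplets, lay at 4.28, 3.27, 3.57 and 4.46 against -2.76, -2.86, -1.93 and -0.88. In neither gene did the groups overlap, and the fitted increases were 7.47 ± 0.94 (SE, adjusted p = 2.5e-06) and 6.0 ± 0.58 (adjusted p = 4.5e-08). Mfsd2a, a transporter of lysophosphatidylcholine, rose 45.2-fold and Acot3, a peroxisomal acyl-CoA thioesterase, 64.0-fold. Pde6c, Usp2 and Slc16a5 rose by 5.48, 5.41 and 5.29 on the log2 scale; Usp2 encodes a ubiquitin protease with a daily rhythm, and Slc16a5 a monocarboxylate transporter.

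**Figure D1:**
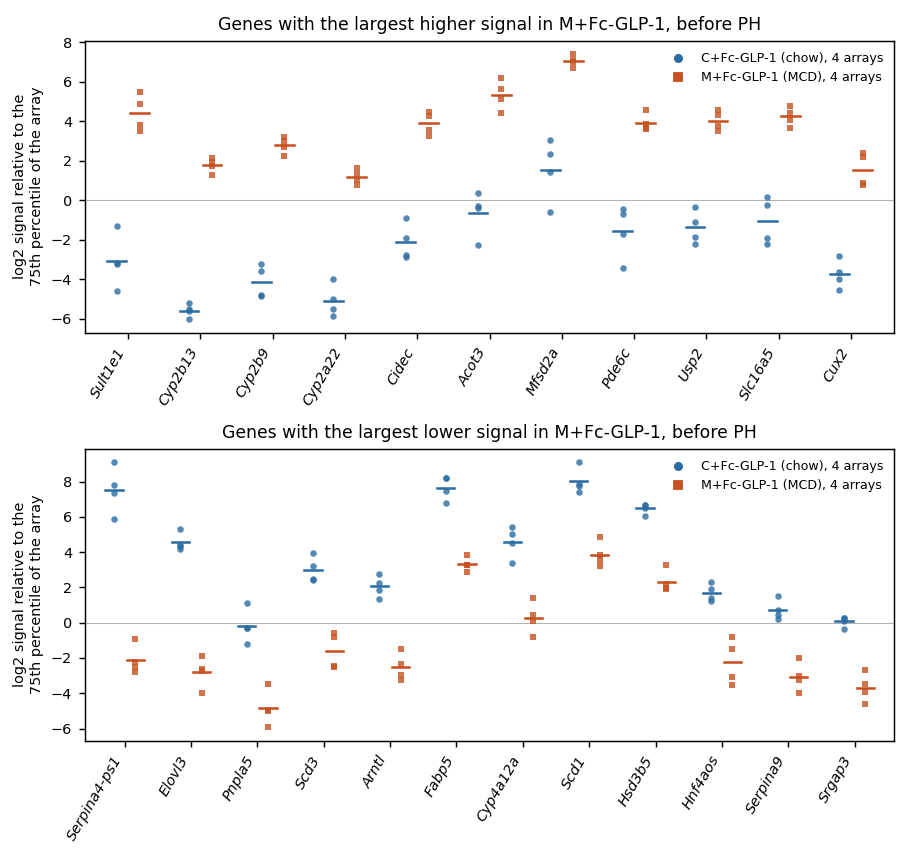
Log2 signal relative to the 75th percentile of the array (vertical axis) for 11 of the 12 genes with the largest increase and for the 12 with the largest decrease in M+Fc-GLP-1 against C+Fc-GLP-1 mice before PH. Each point is 1 array, 4 per group, and bars are group means. The groups do not overlap for any of these genes, with Cyp2b13 between 1.30 and 2.17 in M+Fc-GLP-1 and at -5.19 or lower in C+Fc-GLP-1 arrays.

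The largest decreases included a serpin pseudogene and enzymes of fatty acid elongation and desaturation. Serpina4-ps1 was at 7.83, 5.88, 9.10 and 7.33 in C+Fc-GLP-1 and at -0.93, -2.77, -2.21 and -2.49 in M+Fc-GLP-1 mice, a decrease of 795-fold (adjusted p = 1.5e-05). Elovl3, an elongase of very long chain fatty acids, was at 4.39, 5.31, 4.16 and 4.35 against -3.97, -2.76, -2.63 and -1.87 and fell by 7.36 ± 1.15 on the log2 scale. Only 1 M+Fc-GLP-1 array had Elovl3 well above background, so this size is not exact. Scd1, the stearoyl-CoA desaturase that makes oleate, was at 7.42, 7.74, 9.12 and 7.87 in C+Fc-GLP-1 and at 3.81, 4.84, 3.54 and 3.19 in M+Fc-GLP-1 mice, 18.2-fold lower under the MCD diet. For these 3 genes every MCD array lay well under every chow array. Fabp5, a fatty acid binding protein, fell by 4.35 on the log2 scale, Serpina9 by 3.79, Srgap3 by 3.76 and the non-coding Hnf4aos by 3.94. Scd3, a close relative of Scd1, fell by 4.60 with its brightest probe, but a second probe did not point the same way and the mean of both gave -2.19.

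Gene lists were then read against the share of all genes. The list that moved most was that of genes expressed more in female than in male mouse liver, although all animals were male: 15 of its 18 members tested rose, against 5.34% of all genes, and none fell, with a median difference of 3.96 where all genes had 0.03 (3.54 when members below background in a whole group were set at their bound). Besides Sult1e1 it holds Cyp2b9 and Cyp2b13, steroid hydroxylases of female liver. Cyp2b13 was well above background on no C+Fc-GLP-1 array and on all M+Fc-GLP-1 arrays, where it lay at 1.75, 1.30, 1.93 and 2.17, and was at least 82.1-fold higher (adjusted p = 2.5e-15). Cyp2b9 lay at 2.72, 3.19, 3.00 and 2.22 in M+Fc-GLP-1 and at -4.83, -3.57, -4.80 and -3.24 in C+Fc-GLP-1 mice, a difference of 6.89 ± 0.78. Only 2 C+Fc-GLP-1 arrays had Cyp2b9 well above background. Cyp2a22, a related enzyme outside the list, was at least 50.4-fold higher. Cyp3a44 was at least 13.7-fold higher, with 3 arrays between -0.38 and -0.04 and replicate 2 at -2.59. Close relatives such as the Cyp2b, Cyp2a, Cyp3a, Acot and Saa genes can share signal on oligonucleotide probes, so their single values are less certain.

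Cux2, a transcription factor that activates female-biased genes in the liver, was at 2.20, 0.79, 0.87 and 2.38 in M+Fc-GLP-1 and at -3.61, -4.54, -3.97 and -2.80 in C+Fc-GLP-1 mice. The groups were far apart, by 5.29 ± 0.47 (adjusted p = 1e-08). Members of the list that also rose were Fmo2, Slc22a27, Slc22a26, Tox, Abcd2, Cyp2a4, Trim24, Cyp17a1 and Acot3, and those that did not pass were Sult2a1, which was well above background on 1 M+Fc-GLP-1 array and no C+Fc-GLP-1 array (adjusted p = 0.34), Cyp3a16 and Prlr.

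The reverse held for genes expressed more in male liver, of which 9 of 13 tested fell (all genes: 5.02%) and none rose, with a median of -2.07. Cyp4a12a, which hydroxylates fatty acids and arachidonic acid, had log2 signals of 3.38, 5.04, 5.40 and 4.54 in C+Fc-GLP-1 and of 0.43, -0.81, 0.09 and 1.43 in M+Fc-GLP-1 mice. Hsd3b5, a hydroxysteroid dehydrogenase of male liver, was at 6.69, 6.49, 6.69 and 6.06 against 1.92, 3.25, 1.95 and 2.22. Both fell without overlap, by 4.30 ± 0.83 (adjusted p = 0.00083) and by 4.15 ± 1.18 (adjusted p = 0.021) on the log2 scale, but the call of Hsd3b5 was lost without M+Fc-GLP-1 replicate 1 (adjusted p = 0.0501) or replicate 3 (0.0532). Slco1a1, a bile acid and steroid carrier, was at 5.24, 4.81, 4.64 and 4.60 against 1.64, 1.57, -0.0050 and 1.27, a separation that passed only narrowly (adjusted p = 0.042) and did not pass when any 1 array of the 8 was left out (0.053 to 0.112). C6, a terminal complement component that is male-biased in mice, fell by 3.54 ± 0.33. The major urinary protein gene Mup20 (-0.22) and Serpina1e (-0.12) did not pass.

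Within the growth hormone and IGF axis 1 of 15 members tested rose and 2 fell (all genes: 5.34% and 5.02%). The 1 that rose was Igfbp2, an IGF binding protein, which was not called without C+Fc-GLP-1 replicate 3 or 4 or M+Fc-GLP-1 replicate 1, 2 or 4 (adjusted p between 0.0521 and 0.098). Stat5b, the transcription factor that carries the growth hormone signal, fell by 0.96 ± 0.20 (adjusted p = 0.0023). Bcl6, a repressor that is male-biased in liver, was at 3.49, 5.53, 4.09 and 2.46 in C+Fc-GLP-1 and at 3.44, 0.81, 1.08 and 1.12 in M+Fc-GLP-1 mice. Its groups overlapped because M+Fc-GLP-1 replicate 1 lay among the chow arrays; the call (adjusted p = 0.027) was lost without C+Fc-GLP-1 replicate 2 (0.129) or 3 (0.0629) or M+Fc-GLP-1 replicate 2 (0.0723), 3 (0.0762) or 4 (0.0792). The growth hormone receptor Ghr (-0.77, adjusted p = 0.24) and Igf1 (-0.45, adjusted p = 0.23) did not pass.

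**Figure D2:**
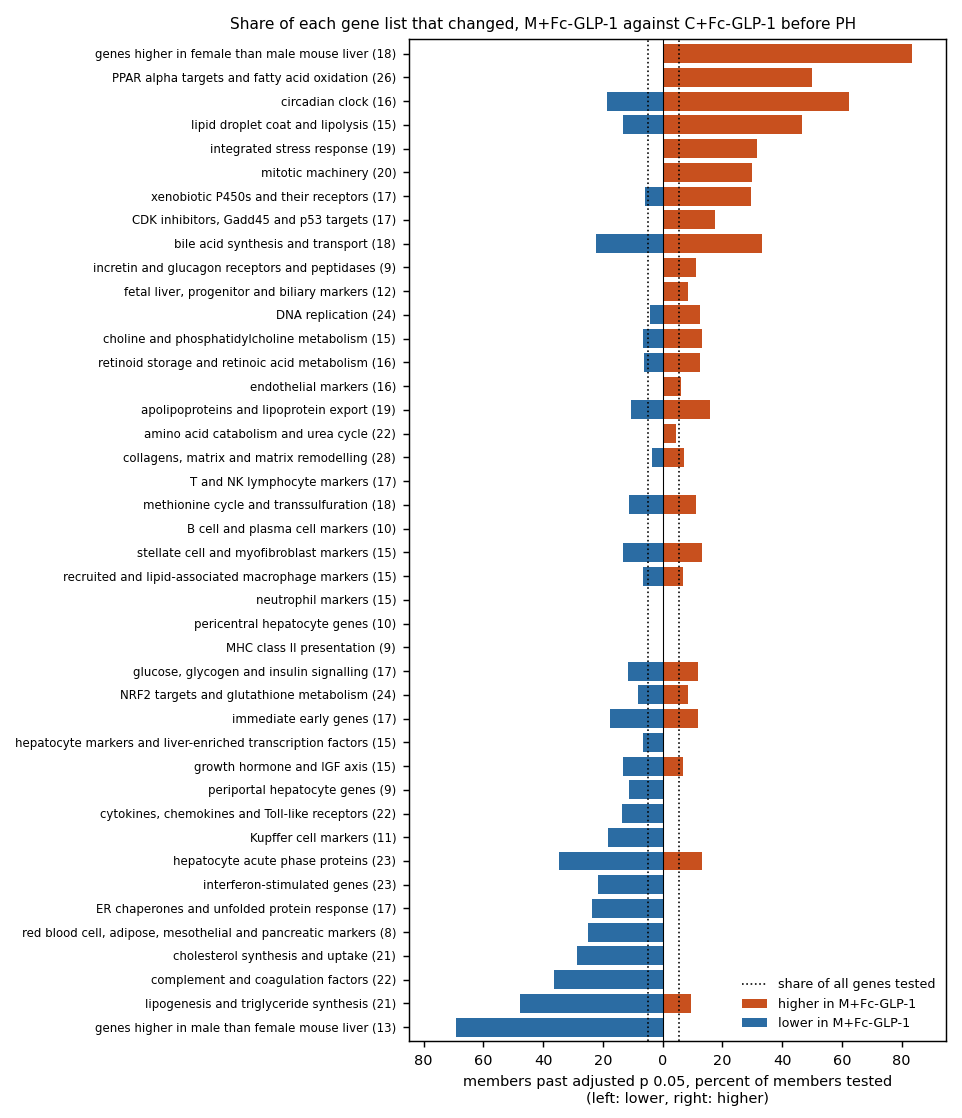
Share of the tested members of each of 42 gene lists (number tested in brackets) that passed an adjusted p of 0.05 in M+Fc-GLP-1 against C+Fc-GLP-1 mice before PH, with members that rose to the right and members that fell to the left, in percent. Dotted lines mark the shares over all genes tested, 5.34% and 5.02%. The list of female-biased genes lies at the top with 15 of 18 and that of male-biased genes at the bottom with 9 of 13.

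Under Fc-GLP-1, many genes of fat synthesis were lower and many genes of fat burning and storage were higher with the MCD diet. Of 21 genes of lipogenesis and triglyceride synthesis 10 fell and 2 rose, with a median of -1.02. Fasn, the fatty acid synthase, was at 4.59, 4.52, 5.24 and 5.0 in C+Fc-GLP-1 and at 1.79, 2.86, 1.71 and 1.23 in M+Fc-GLP-1 mice, 7.67-fold lower (adjusted p = 3.9e-05). The groups lay more than 1 unit apart on the log2 scale. Pnpla5 and Pnpla3, lipases of the patatin family that are induced by SREBP1c, were well above background on all chow arrays and on no MCD array and were at least 15.7-fold (adjusted p = 1.8e-05) and at least 7.5-fold (adjusted p = 0.0014) lower. Acly, Elovl6, Thrsp, Me1, Srebf1 and Gpam fell by 1.02 to 2.24 on the log2 scale. Lpin1 and Lpin2, the phosphatidate phosphatases, rose by 1.10 and 1.33, while Dgat1 and Dgat2, which make triglyceride, differed by 0.31 and 0.18 and did not pass. The number of members that fell was 5 without C+Fc-GLP-1 replicate 3 and 6 when only the 8 arrays were fitted. None rose without C+Fc-GLP-1 replicate 2 or 3 or M+Fc-GLP-1 replicate 1, 1 rose without M+Fc-GLP-1 replicate 2 or 4, and with arrays centred on their median 13 fell and none rose.

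Cholesterol synthesis moved with lipogenesis: 6 of 21 tested genes fell, none rose, and the median was -0.86. Dhcr7, which catalyses the last step to cholesterol, was at 3.66, 4.18, 4.28 and 4.25 in C+Fc-GLP-1 and at 1.44, 2.30, 2.64 and 2.24 in M+Fc-GLP-1 mice, and Pmvk, the phosphomevalonate kinase, was at 7.36, 7.0, 7.14 and 7.28 against 5.82, 5.37, 6.60 and 5.73. Both were lower in every MCD array, by 1.93 ± 0.33 for Dhcr7 (adjusted p = 0.00022) and 1.31 ± 0.26 for Pmvk. Between 2 and 6 members were called when single arrays were left out, with 2 without C+Fc-GLP-1 replicate 3 or M+Fc-GLP-1 replicate 2, 3 without C+Fc-GLP-1 replicate 4 or M+Fc-GLP-1 replicate 1, and 4 or more otherwise.

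Lipid droplet genes rose for 7 of 15 members and fell for 2. Plin4, a perilipin that coats droplets, lay at 5.04, 3.47, 4.97 and 4.88 in M+Fc-GLP-1 and at 0.73, -0.45, -0.15 and 1.03 in C+Fc-GLP-1 mice, and Plin5, which tethers droplets to mitochondria, lay at 6.84, 6.51, 6.91 and 6.91 against 4.80, 5.03, 4.63 and 4.75. No MCD array reached down to a chow array in either gene, although M+Fc-GLP-1 replicate 2 was the lowest MCD array for both. Plin4 rose by 4.30 ± 0.54 (adjusted p = 2.3e-06) and Plin5 by 1.99 ± 0.27 (adjusted p = 8.9e-06). Pnpla2, the adipose triglyceride lipase, was at 5.30, 4.58, 4.91 and 5.29 against 3.75, 3.13, 2.68 and 2.33 and rose by 2.05 ± 0.31. Its inhibitor G0s2 and the general droplet protein Plin2 rose as well (1.73 and 1.0), whereas its activator Abhd5 fell by 1.15 on the log2 scale. The number that fell was 1 in place of 2 without any one of C+Fc-GLP-1 replicates 2, 3 or 4 or M+Fc-GLP-1 replicates 1, 3 or 4.

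Of 26 genes of PPARα and fatty acid oxidation, 13 rose, none fell, and the median was 0.93. Ppara itself rose by 1.39 and Cpt1a, which admits fatty acids into mitochondria, by 1.37 on the log2 scale. Cyp4a14, an omega-hydroxylase, was at 9.92, 8.12, 9.38 and 9.21 in M+Fc-GLP-1 and at 4.99, 5.13, 3.15 and 6.07 in C+Fc-GLP-1 mice, and Acot4, a peroxisomal thioesterase, was at 3.59, 2.93, 4.05 and 3.54 against 1.16, 0.34, 0.04 and 1.35. All MCD arrays were above all chow arrays, with increases of 4.32 ± 0.79 (adjusted p = 0.00046) and 2.80 ± 0.33 (adjusted p = 9.9e-07). Acot2, Pdk4, Cyp4a10, Vnn1, Cd36, Angptl4, Hadhb and Acadl rose by 0.96 to 3.91. Only 1 C+Fc-GLP-1 array had Acot2 well above background. Acsl1 (0.18), which activates fatty acids, and Acadm (0.48), a mitochondrial dehydrogenase, did not pass. Acot3 stands in this list and in that of female-biased genes.

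**Figure D3:**
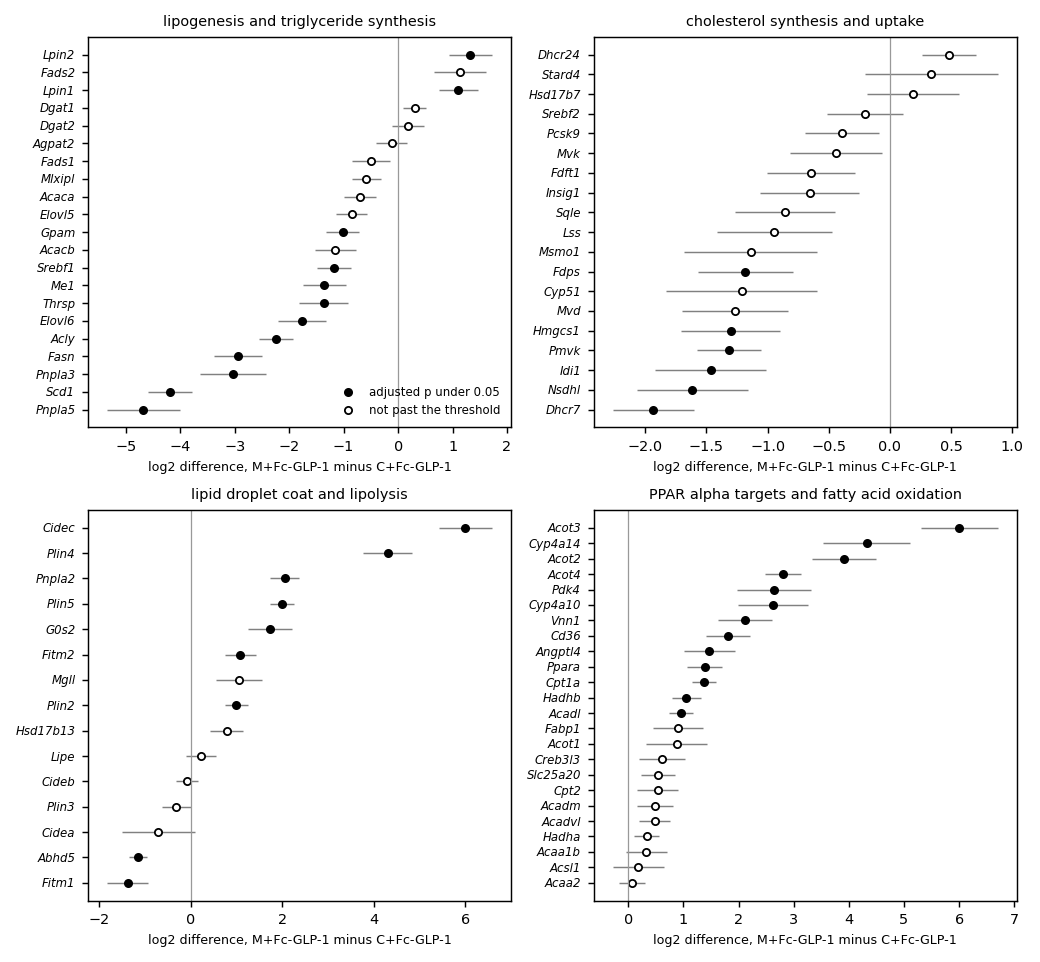
Log2 difference between M+Fc-GLP-1 and C+Fc-GLP-1 mice before PH (horizontal axis, point with SE from limma) for genes of 4 lipid lists. Filled points passed an adjusted p of 0.05. Pnpla3 and Pnpla5, which no MCD array had well above background, are drawn at their fitted values. Lipogenesis and cholesterol genes lie mostly left of 0 (medians -1.02 and -0.86), droplet and PPARα genes mostly right of it (1.0 and 0.93).

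Of 16 circadian clock genes tested 10 rose and 3 fell, with a median of 1.57 (1.35 with members below background at their bound). Those that passed moved in both directions. Arntl, which encodes BMAL1, was at 1.87, 2.75, 2.27 and 1.37 in C+Fc-GLP-1 and at -2.97, -1.5, -3.23 and -2.36 in M+Fc-GLP-1 mice and fell 23.9-fold (adjusted p = 1.6e-05). Its partner Clock and Nfil3, a repressor at D-box elements, fell by 0.86 and 2.16 on the log2 scale. Ciart, a repressor of CLOCK and BMAL1, was well above background on no chow array and on all MCD arrays (0.38, -0.09, -0.35 and -0.04), at least 23.4-fold higher (adjusted p = 7.2e-07), and Per3, a period gene, was at least 6.14-fold higher (adjusted p = 0.0005). Dbp, an activator at D-box elements, was at 6.18, 7.05, 6.81 and 6.60 in M+Fc-GLP-1 and at 3.69, 0.62, 1.27 and 4.32 in C+Fc-GLP-1 mice and rose by 4.19 ± 0.68 (adjusted p = 0.00011). The chow arrays of Dbp were spread over more than 3 log2 units, with replicates 1 and 4 high and 2 and 3 low, while the MCD arrays were close together. Tef, Per1, Per2, Hlf, Nr1d2 and Cry2 rose by 1.26 to 2.98, and Bhlhe41, which no chow array had well above background, was at least 2.31-fold higher. Nr1d1 (-0.11) and Bhlhe40 (0.09), both repressors, did not pass. The hour of tissue collection, on which the level of these genes depends, was not tested.

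Elements through which clock proteins act were found in the promoter windows of Ciart and Per3. Windows are shown, here and for Nupr1 and Fgf21 below, only for named genes that hold an element of their own list. Of these the genes with the largest differences were taken, and Vldlr and Bcl6, which also hold one, are not shown. The windows of RefSeq on GRCm38.p6 hold the 250 bases before the start site, 5′ to 3′ on the gene's strand, for Ciart (chr3:95882229-95882478, minus strand) and Per3 (chr4:151044666-151044915, minus strand). Capitals mark the E-box CACGTG in Ciart, bound by CLOCK and BMAL1 among others, and the D-box TTATGTAA in Per3.
Ciart: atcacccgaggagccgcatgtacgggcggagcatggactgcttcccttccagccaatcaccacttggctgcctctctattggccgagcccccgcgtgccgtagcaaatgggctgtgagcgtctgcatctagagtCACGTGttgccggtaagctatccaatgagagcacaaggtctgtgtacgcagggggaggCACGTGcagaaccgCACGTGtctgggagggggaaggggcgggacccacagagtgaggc
Per3: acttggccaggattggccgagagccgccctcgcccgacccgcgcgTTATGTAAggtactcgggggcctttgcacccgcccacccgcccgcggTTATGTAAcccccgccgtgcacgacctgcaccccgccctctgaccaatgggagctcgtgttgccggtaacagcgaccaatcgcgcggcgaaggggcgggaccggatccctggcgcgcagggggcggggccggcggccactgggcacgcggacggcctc
Ciart has 3 E-boxes, at -116 to -111, -58 to -53 and -44 to -39 from the start site, and Per3 has 2 D-boxes, at -205 to -198 and -158 to -151. Both strands were searched, and the motifs do not overlap. An E-box was present in 7.74% of the windows of all genes tested, in 10.4% for genes that rose, in 5.64% for genes that fell, in 6.02% of all promoters and in 27.8% (5 of 18 windows) for the clock list. The D-box was rarer, with 0.589%, 0.81%, 0.451%, 0.819% and 5.56% in the same order. Windows were at hand for 11675 of the genes tested, and a match describes the letters only.

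**Figure D4:**
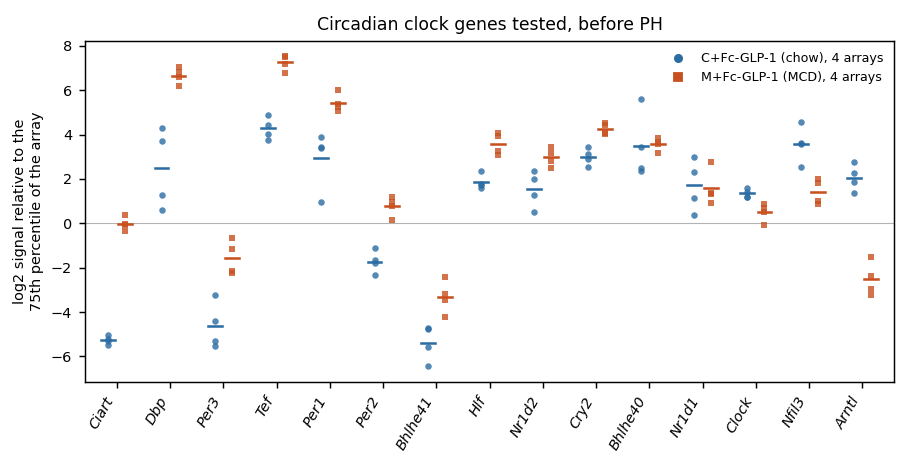
Log2 signal relative to the 75th percentile of the array for 15 of the 16 circadian clock genes tested, ordered by their difference. Each point is 1 array, 4 per group, and bars are group means. From Ciart to Cry2 the M+Fc-GLP-1 points lie above the C+Fc-GLP-1 points, Bhlhe40 and Nr1d1 overlap, and Clock, Nfil3 and Arntl lie below.

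Targets of the integrated stress response, in which ATF4 answers a shortage of amino acids, rose for 6 of 19 members and fell for none. Nupr1, a stress-induced chromatin protein, was at 3.14, 4.87, 6.27 and 4.12 in M+Fc-GLP-1 and at 0.88, 0.82, 1.14 and 1.04 in C+Fc-GLP-1 mice. Psat1, an enzyme of serine synthesis, was at 1.05, 1.17, 0.68 and 1.02 against -5.0, -2.73, -1.76 and -2.07, and Fgf21, a hepatic hormone induced by protein shortage and fasting, was at 3.56, 4.50, 3.70 and 3.45 against 1.21, -1.0, 0.86 and 1.22. In all 3 genes every MCD array exceeded every chow array, with increases of 3.63 ± 0.63 (adjusted p = 0.00027), 3.87 ± 0.54 (adjusted p = 1.4e-05) and 3.23 ± 0.54 (adjusted p = 0.00014). Trib3, a pseudokinase induced by ATF4, rose by 3.03, Asns, the asparagine synthetase, by 2.33 and Vldlr, a lipoprotein receptor, by 2.24. Atf4 (0.13), Ddit3 (0.96, adjusted p = 0.10), Chac1 (-0.59) and Gdf15 (-0.15) did not pass. Vldlr was highest in M+Fc-GLP-1 but its groups overlapped, and without C+Fc-GLP-1 replicate 2 its difference was 1.49.

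The letters TGATGCAA, to which ATF4 binds together with C/EBP proteins, lie in the promoter windows of Nupr1 (chr7:126625471-126625720, minus strand) and Fgf21 (chr7:45615491-45615740, minus strand). The element is on the opposite strand in both and so reads TTGCATCA, in capitals, on the gene's strand.
Nupr1: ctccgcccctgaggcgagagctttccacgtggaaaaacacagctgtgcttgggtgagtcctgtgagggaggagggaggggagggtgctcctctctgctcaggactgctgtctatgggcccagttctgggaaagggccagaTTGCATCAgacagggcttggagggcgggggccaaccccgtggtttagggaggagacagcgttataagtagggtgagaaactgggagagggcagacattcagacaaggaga
Fgf21: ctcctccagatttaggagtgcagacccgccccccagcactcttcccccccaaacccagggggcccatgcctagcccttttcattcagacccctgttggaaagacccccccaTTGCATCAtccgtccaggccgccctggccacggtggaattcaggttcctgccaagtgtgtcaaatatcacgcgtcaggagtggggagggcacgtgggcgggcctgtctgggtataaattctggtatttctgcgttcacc
It stands at -110 to -103 in Nupr1 and at -139 to -132 in Fgf21. Over all genes tested 0.609% of windows held it, against 1.16% for genes that rose, 0.789% for genes that fell, 0.791% of all promoters and 22.7% (5 of 22 windows) for the stress list.

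Of 17 chaperones and quality control genes of the endoplasmic reticulum 4 fell and none rose, led by Sdf2l1, a cofactor of BiP, at 2.82, 4.61, 4.07 and 3.58 in C+Fc-GLP-1 and 0.14, 1.29, 2.20 and -0.25 with the MCD diet (fell by 2.93 ± 0.44, adjusted p = 4.1e-05). Hspa5, which encodes BiP, differed by -0.13 and did not pass. Calr, Edem1 and Pdia6 were called at adjusted p = 0.0069, 0.012 and 0.0081, and without C+Fc-GLP-1 replicate 2 the calls of Edem1 (0.0735) and Pdia6 (0.0522) were lost. For NRF2 targets and glutathione genes 2 of 24 rose, Cbr3 and Srxn1, and 2 fell, Gstm4 and Ephx1 (all genes: 5.34% and 5.02%). Srxn1 was not called without C+Fc-GLP-1 replicate 4 or M+Fc-GLP-1 replicate 2 or 3, and Ephx1 was not called without C+Fc-GLP-1 replicate 2 or M+Fc-GLP-1 replicate 3. Immediate early genes were split, with 2 of 17 higher, Myc and Klf6, and 3 lower, among them Dusp1, a MAP kinase phosphatase, which had a log2 difference of -2.03 (adjusted p = 0.00026). Klf6 was not called without C+Fc-GLP-1 replicate 1, 3 or 4 or M+Fc-GLP-1 replicate 1 or 4. The 3 that fell were 1 without C+Fc-GLP-1 replicate 1 or 2 or M+Fc-GLP-1 replicate 1 or 4, 5 without C+Fc-GLP-1 replicate 3 and 6 without M+Fc-GLP-1 replicate 2. For amino acid catabolism and the urea cycle 1 of 22 passed (all genes: 10.4%), Got1, the aspartate transaminase. Got1 was not called without C+Fc-GLP-1 replicate 3 (adjusted p = 0.109) or M+Fc-GLP-1 replicate 3 (0.0661). In that list 2 rose without C+Fc-GLP-1 replicate 4 and 2 fell without C+Fc-GLP-1 replicate 1.

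Genes that handle the missing nutrients changed in both directions, where 5.34% of all genes rose and 5.02% fell. In the methionine cycle Mat2a, the methionine adenosyltransferase of extrahepatic type, was at 5.27, 6.99, 5.90 and 6.65 in M+Fc-GLP-1 and at 4.19, 4.27, 3.54 and 5.08 in C+Fc-GLP-1 mice, all higher, by 1.93 ± 0.32 (adjusted p = 0.00013). Csad, which makes taurine from cysteine, fell by 1.87 on the log2 scale, and of 18 members 2 rose and 2 fell. Among choline genes Chka, the choline kinase that starts phosphatidylcholine synthesis, was at 1.27, 1.76, 1.24 and 1.07 in M+Fc-GLP-1 and at 3.55, 3.59, 3.30 and 3.88 in C+Fc-GLP-1 mice, a log2 difference of -2.25 ± 0.23 (adjusted p = 1.2e-07). Gpcpd1, which releases choline from glycerophosphocholine, rose by 2.55 ± 0.43, with arrays at 2.75, 2.17, 2.83 and 2.78 against 0.69, -0.34, 0.28 and -0.32. Pemt, which makes phosphatidylcholine by methylation, differed by 0.59 (adjusted p = 0.22). Of 15 choline genes 2 rose and 1 fell, and of 19 apolipoprotein and lipoprotein genes 3 rose, Apoa4, Apoa5 and Vldlr, and 2 fell, Pltp and Lipc.

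Bile acid genes passed for 10 of 18 members, 6 higher and 4 lower. Cyp39a1, an oxysterol hydroxylase, was at 6.12, 5.71, 6.63 and 6.37 in M+Fc-GLP-1 and at 3.59, 3.51, 4.08 and 3.80 in C+Fc-GLP-1 mice and rose by 2.46 ± 0.30 (adjusted p = 1.6e-06). The carrier Slco1a4 rose by 2.62 and the basolateral exporter subunit Slc51b by 2.80, while the rate-limiting Cyp7a1 differed by 0.99 (adjusted p = 0.33). The lower members were Slco1a1, Cyp7b1, Nr0b2 and Cyp27a1, and their number was 1 without C+Fc-GLP-1 replicate 2 and 2 without C+Fc-GLP-1 replicate 3 or 4 or M+Fc-GLP-1 replicate 1, 3 or 4. With normexp and quantile normalisation 2 rose in place of 6. Among drug-metabolising P450s and their receptors 5 of 17 rose and 1 fell. Cyp2b10, the best known target of the receptor CAR, was at 6.59, 7.09, 6.88 and 6.54 against 1.84, 2.68, 1.07 and 1.65, 31.2-fold higher (adjusted p = 7.6e-06). Its receptor gene Nr1i3 and Nr1i2, which encodes PXR, rose by 1.32 and 1.5, and Por, the P450 reductase, by 2.51. Cyp2c55 fell by 1.91 on the log2 scale. In glucose metabolism 2 of 17 rose and 2 fell (all genes: 5.34% and 5.02%), among them Ppp1r3c, a glycogen targeting subunit, which fell by 2.87. The 2 that rose were Irs2 and Ppargc1a, and neither was called without C+Fc-GLP-1 replicate 2 or M+Fc-GLP-1 replicate 3. Irs2 was not called without C+Fc-GLP-1 replicate 1 or M+Fc-GLP-1 replicate 1 either, nor Ppargc1a without C+Fc-GLP-1 replicate 3. Of 16 retinoid genes Cyp26b1, which degrades retinoic acid, and Bco1, which cleaves carotene, rose and Dhrs3 fell (all genes: 5.34% and 5.02%). Cyp26b1 was not called without C+Fc-GLP-1 replicate 2 or 3 or M+Fc-GLP-1 replicate 3 or 4.

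Plasma proteins made by hepatocytes were lower for a part of the lists. Of 23 acute phase genes 8 fell and 3 rose. Saa1, a serum amyloid A protein, was at 6.88, 7.82, 6.13 and 6.95 in C+Fc-GLP-1 and at 3.51, 4.42, 2.76 and 3.14 in M+Fc-GLP-1 mice, and fell by 3.49 ± 0.63 (adjusted p = 0.00041) with Saa2, Saa3 and Saa4. Mt1, the metallothionein, and Apcs, serum amyloid P, went the other way and rose by 3.34 and 2.17. Hp, Hpx and Fgb differed by -0.02 to -0.29 and did not pass. Of 22 complement and coagulation genes 8 fell and none rose, chiefly the terminal pathway: C8a was at 6.31, 7.26, 6.30 and 6.52 in C+Fc-GLP-1 and at 3.06, 4.17, 3.37 and 1.96 in M+Fc-GLP-1 livers, with no overlap and a decrease of 3.46 ± 0.35 (adjusted p = 8.9e-08), and C9 fell by 2.13. C3, the central component, differed by 0.04. The count of acute phase genes that fell was 5 without C+Fc-GLP-1 replicate 2 or M+Fc-GLP-1 replicate 4, and that of complement genes was 5 without M+Fc-GLP-1 replicate 3.

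Among the markers of inflammatory cells Cd63 was the 1 gene that passed as higher under the MCD diet when Fc-GLP-1 was given. None of 15 neutrophil, 17 T and NK cell, 10 B and plasma cell or 9 MHC class II genes passed in the limma test. At an unadjusted p under 0.05 these lists had 1, 5, 3 and 1 members, of which only 1, in the T and NK cell list, was higher; over all genes the share at that threshold was 25.1%. Without single arrays at most 2 members of any of these lists were called. Of 11 Kupffer cell markers 2 fell, Folr2 and Clec4f, and none rose; the mean log2 signal of the list lay between 2.10 and 3.05 in the C+Fc-GLP-1 arrays and between 0.89 and 2.17 in the M+Fc-GLP-1 arrays. Folr2, the folate receptor beta, was at 0.42, 2.41, 0.39 and 1.21 against -0.89, -0.20, -1.61 and -1.37 and fell by 2.12 ± 0.44 (adjusted p = 0.0016). Clec4f, a lectin of Kupffer cells, was at 4.12, 4.44, 3.55 and 4.46 against 2.54, 3.55, 2.36 and 3.71, with overlap (adjusted p = 0.043), and did not pass without C+Fc-GLP-1 replicate 1 (0.0674), 2 (0.117) or 4 (0.107) or M+Fc-GLP-1 replicate 1 (0.124) or 3 (0.155). Adgre1, a surface receptor of macrophages, differed by -0.62 (adjusted p = 0.56). Of 15 markers of recruited and lipid-associated macrophages Cd63 rose and Fabp5 fell. At an unadjusted p under 0.05 4 of the 15 were higher and 2 lower. Fabp5 is not restricted to macrophages, and the call of Cd63 was lost without C+Fc-GLP-1 replicate 2 or 4 or M+Fc-GLP-1 replicate 1 or 4 (adjusted p between 0.0561 and 0.0979). When only the 8 arrays were fitted 5 members of that list rose.

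Among 22 cytokines, chemokines and Toll-like receptors 3 fell and none rose, and 5 fell when only the 8 arrays were fitted. Il1b, the inflammasome product, was at -0.67, 0.17, -1.15 and -0.93 in C+Fc-GLP-1 and at -3.41, -3.18, -3.79 and -2.62 in M+Fc-GLP-1 mice, where only 2 arrays were well above background, and fell by 2.61 ± 0.47 (adjusted p = 0.00044). Ccl2, which encodes MCP1, was at 1.93, 2.39, 0.05 and 1.81 against -0.83, -0.17, -0.12 and -0.28; the groups did not overlap, yet the difference of -1.90 ± 0.85 did not pass (adjusted p = 0.16), while it did with the authors' normalised values (0.0132) and when only the 8 arrays were fitted (0.038). No array of either group had Tnf well above background. Interferon-stimulated genes fell for 5 of 23 members, with Oas2 (-1.73, adjusted p = 0.0012) and Bst2 (-1.36, adjusted p = 0.00049) the clearest, and 3 members fell when M+Fc-GLP-1 replicate 2 or 3 was left out.

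Without Fc-GLP-1 the same diet contrast was different for these groups. MCD against C mice, on another slide, gave 5557 called genes (26.4%), with 2299 higher (10.9%) and 3258 lower (15.5%) and a median over all genes of -0.13; with arrays centred on their median the balance turned, to 4197 higher and 1264 lower. There the median of Kupffer cell markers was 1.33, that of cytokines and receptors 1.57, that of MHC class II genes 1.65 and that of neutrophil markers 1.25, against -0.67, -0.12, -0.35 and 0.13 under Fc-GLP-1, the last of which was -0.13 with arrays centred on their median. The difference of the 2 diet effects was tested for every gene and passed for 1290 (6.14%), 752 of them (3.58%) with a higher value under Fc-GLP-1 and 538 (2.56%) with a lower one; with arrays centred on their median these were 147 and 2410. Lower values were found for 7 of 11 Kupffer cell markers, 5 of 22 cytokine and receptor genes, 4 of 15 neutrophil markers, 4 of 9 MHC class II genes and 4 of 23 interferon-stimulated genes. Since each diet contrast lay within its slide, an added slide effect cancels, but treatment and slide cannot be told apart in this difference. On the slide without Fc-GLP-1 the raw 75th percentile also separated the diets, with 209 to 395 in C and 442 to 564 in MCD arrays. C replicate 2 had 69.0% of probes well above background. How far array brightness bears on these counts was not tested.

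F13a1, coagulation factor XIII A of macrophages, was 2.47 higher with MCD than with C and at least 4.07-fold lower with M+Fc-GLP-1 than with C+Fc-GLP-1 (difference of the effects -5.08, adjusted p = 0.0066); its fall under Fc-GLP-1 (adjusted p = 0.020) was lost without C+Fc-GLP-1 replicate 2 (0.111) or M+Fc-GLP-1 replicate 1 (0.0602). Themis2, a signalling protein of B cells and macrophages, had diet effects of 1.43 without and -2.38 with Fc-GLP-1. Ifitm6 was 1.99 higher with MCD than with C and, with no M+Fc-GLP-1 array well above background, at least 2.72-fold lower under Fc-GLP-1, and its fall was lost without C+Fc-GLP-1 replicate 2 (adjusted p = 0.084) or 4 (0.0686) or M+Fc-GLP-1 replicate 2 (0.0789). Lcn2, lipocalin 2, was 5.08 higher with MCD and differed by -0.57 under Fc-GLP-1, where arrays at 3.59, 3.16, 2.66 and 2.62 overlapped with 3.59, 4.56, 2.24 and 3.90. S100a8, a calcium-binding protein of neutrophils, had effects of 3.06 and -1.37 and Ccl2 of 2.50 and -1.90. For these 6 genes the difference of the effects passed (adjusted p between 0.0042 and 0.030). Of 19 genes of the integrated stress response 12 rose without and 6 with Fc-GLP-1, and the difference of the effects passed for 2.

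**Figure D5:**
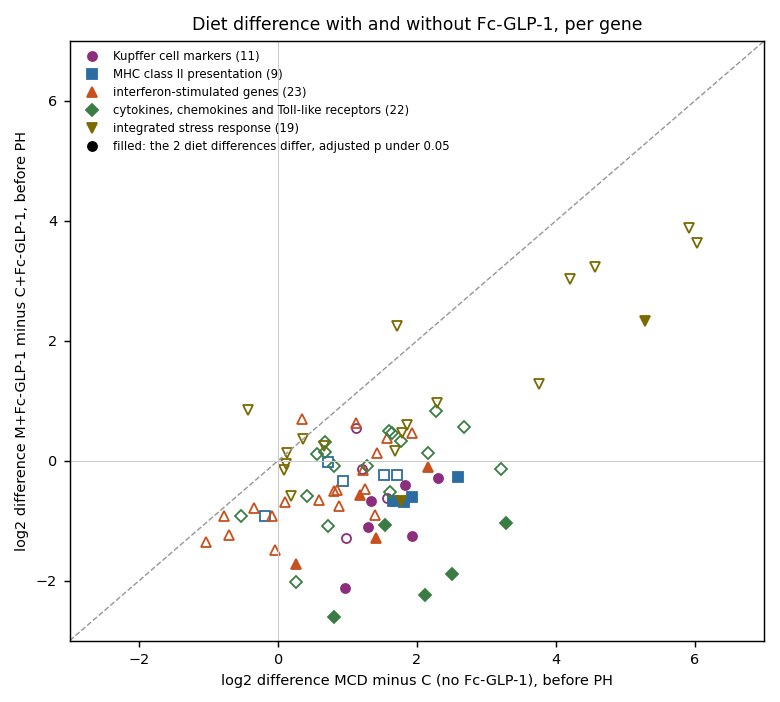
Log2 difference by diet without Fc-GLP-1 (MCD minus C, horizontal axis) and with it (M+Fc-GLP-1 minus C+Fc-GLP-1, vertical axis) before PH for every tested gene of 5 lists. Filled symbols mark genes whose 2 diet differences differed at an adjusted p of 0.05, and the dashed line marks equal values. Most Kupffer cell, MHC class II and cytokine genes lie right of 0 on the horizontal axis, most Kupffer cell and MHC class II genes lie below 0 on the vertical axis, and the stress genes with the largest values (Nupr1 6.03 and 3.63) are positive on both.

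The difference of the effects passed for 5 of 21 lipogenesis, 9 of 21 cholesterol, 2 of 15 droplet, 4 of 26 PPARα and 3 of 16 clock genes, against 6.14% of all genes. Without Fc-GLP-1 the median was -0.13 for PPARα genes (5 rose, 4 fell) and 0.14 for droplet genes (3 rose, 2 fell). For lipogenesis genes it was -0.32 (none rose, 3 fell). Fasn fell by 2.94 on the log2 scale with Fc-GLP-1 and differed by -0.32 without it (difference of the effects -2.62, adjusted p = 0.016). Arntl fell by 4.58 with Fc-GLP-1 and differed by -0.47 without it (adjusted p = 0.011), Plin4 had 4.30 and 1.08 (adjusted p = 0.015), Gpcpd1 2.55 and -0.85 (adjusted p = 0.0036) and Chka -2.25 and -0.30 (adjusted p = 0.0030). Saa1 fell by 3.49 with Fc-GLP-1 and had 0.11 without it (adjusted p = 0.019). Cholesterol genes had a median of 0.68 without and of -0.86 with Fc-GLP-1, and the effect under Fc-GLP-1 was the lower one for all 9 that passed. Sex-biased genes moved the same way without Fc-GLP-1: 15 of 18 female-biased genes rose (all genes: 10.9%) and 10 of 13 male-biased genes fell (15.5%). The difference of the effects passed for 4 of the 18 female-biased genes and for no male-biased gene. Among sex-biased genes no chow array of either contrast had Cyp3a44 well above background. Its mean log2 signal was -0.80 in M+Fc-GLP-1 and 4.70 in MCD mice (difference of the effects, adjusted p = 0.0010). Cux2 rose more (5.29 and 1.82, adjusted p = 0.0041), while for Sult1e1, Cyp2b9, Cyp2b13 and Elovl3 the difference did not pass (adjusted p between 0.47 and 0.77).

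Of 20 mitotic genes 6 rose, none fell and the median was 1.44, yet single arrays decided the count. Ccnb1, the mitotic cyclin B1, was at -0.09, -1.84, -3.68 and -0.60 in M+Fc-GLP-1 and at -4.01, -3.72, -3.76 and -5.87 in C+Fc-GLP-1 mice. M+Fc-GLP-1 replicate 3 thus lay at the chow level. None of the 20 was called without M+Fc-GLP-1 replicate 4, 1 without M+Fc-GLP-1 replicate 1, 2 without C+Fc-GLP-1 replicate 2 or 3, 3 without C+Fc-GLP-1 replicate 1, 4 without C+Fc-GLP-1 replicate 4 or M+Fc-GLP-1 replicate 2, and 12 without M+Fc-GLP-1 replicate 3. Mean log2 signals of the list ran from -3.24 to -0.64 in M+Fc-GLP-1 and from -3.25 to -3.10 in C+Fc-GLP-1 arrays. Without Fc-GLP-1 19 of the 20 rose, with a median of 2.92. Of DNA replication genes 3 of 24 rose, with Ccne1, cyclin E1, the clearest (2.78, adjusted p = 6.5e-07), and Rfc3 fell; without M+Fc-GLP-1 replicate 3 it was 6 that rose, and Rfc3 was not called without C+Fc-GLP-1 replicate 1 (adjusted p = 0.0787) or M+Fc-GLP-1 replicate 1 (0.0933) or 3 (0.0685). Among CDK inhibitors and p53 targets Cdkn1c, which encodes p57, was at 1.41, 0.51, 0.67 and 1.82 against -0.95, -1.35, -0.52 and -1.12 and rose by 2.09 ± 0.32, Gadd45b rose by 2.77 and Cdkn1a, which encodes p21, differed by -1.03 (adjusted p = 0.28).

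Of 28 collagen and matrix genes 2 rose, Ccn2 and Timp3, and 1 fell, Col3a1, which was called neither without C+Fc-GLP-1 replicate 1, 3 or 4 nor without M+Fc-GLP-1 replicate 2, 3 or 4. Of 15 stellate cell markers Pdgfra and Cygb rose and Ngfr and Myl9 fell, against 5.34% and 5.02% of all genes, and Cygb was not called without C+Fc-GLP-1 replicate 2, 3 or 4 or M+Fc-GLP-1 replicate 1, 2 or 4 (adjusted p between 0.0507 and 0.152). Of 16 endothelial markers 1 rose and of 12 progenitor and biliary markers Afp, the fetal liver protein, rose by 1.84. Col1a1, the main fibrillar collagen, differed by -0.63 (adjusted p = 0.57) and Acta2, the myofibroblast actin, by -0.41. Of 9 periportal genes Cdh1 fell, and none of 10 pericentral genes passed in the limma test, with 2 at an unadjusted p under 0.05, both higher, where 25.1% of all genes reached that threshold. Markers of red blood cells, adipose tissue, mesothelium and pancreas were tested for 8 of 16, of which Cela1 and Alas2 fell, the latter not without C+Fc-GLP-1 replicate 2 or 3 or M+Fc-GLP-1 replicate 1 or 3 (adjusted p between 0.0562 and 0.0831). Among incretin and glucagon receptors Glp1r was well above background on 1 array of each group, which leaves no level to compare, and Gcgr, the glucagon receptor, differed by 0.27 (adjusted p = 0.60). Of the 9 genes of that list only Glp2r passed, at least 2.48-fold higher, and its call was lost with no filter on dim probes (0.573) and with the authors' normalised values (0.0626).

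The same contrast was also measured 2 weeks after PH in other arrays on another slide, where 2692 genes (12.8%) were called, 1301 higher (6.19%) and 1391 lower (6.62%). These mice had survived PH and had stayed on diet and injections. The paper describes the livers before PH as pieces taken out at surgery from the same groups. The 2 sets may therefore share mice, so their agreement is not that of an independent repeat. Of the 2175 genes called before PH 1057, or 48.6%, were called in the same direction after PH, which is 39.3% of the calls after PH, and 8 were called in opposite directions. Against the untreated contrast 982 genes were shared in direction, 45.1% of the calls under Fc-GLP-1 and 17.7% of those without it, and 57 were opposite. Cidec (6.07), Mfsd2a (6.07), Elovl3 (-6.44), Serpina4-ps1 (-9.70) and Arntl (-4.05) were called again after PH. Of the sex-biased lists, 13 of 18 female-biased genes rose after PH (all genes: 6.19%). Of 13 male-biased genes 7 fell (all genes: 6.62%) and 1 rose. Mitotic genes, with a median of 1.44 before PH, had one of -1.58 after PH, where 8 of 20 fell.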

How the data were processed

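Mouse liver RNA (4 livers per group, 8 groups, 32 arrays) was labelled with Cy3 and hybridised to 1-colour Agilent arrays. The deposited scanner files hold background-subtracted intensity values per spot from Feature Extraction 10.7.3.1 and other columns with flags (well above background, saturated, outlier), per the file headers. The authors also deposited normalised log2 values, and the submitters' processing notes name limma. These had been normalised separately before PH (75th percentile 8.567 to 8.576) and after PH (9.184 to 9.244), so they served as an alternative within each time. All 32 of these columns correlated best with their own array (r 0.958 to 0.997 over 17894 probes). No column belonged to other samples.

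Of 55681 probes (59305 spots), 426 were dropped for flags. Processed signals were taken as log2 minus the array's 75th percentile. A probe stayed in (28937) if some group had it well above background on each of its 4 arrays, and a gene was represented by its brightest such probe, giving 21012 genes. No kept probe was saturated. The raw 75th percentile of the 8 arrays ran from 222 to 338, and 4 arrays per group limit the precision. Genes were named through RefSeq by accession (27391 of 55255 probes, 1704 of them under another symbol than in the files), by current symbol (3377) or by synonym (320). All 8 groups were fitted together with limma 3.58.1 in R 4.3.3 (version 1.17.8 of data.table; 24 residual degrees of freedom, Benjamini-Hochberg threshold 0.05). Python 3.11.15, pandas 2.3.3 and matplotlib 3.10.9 were used for motifs and figures, and the scripts were tested on simulated data. A gene below background on every array of a group has a bound: the bright group's mean over, per array, the higher of its own signal and the lowest signal among probes well above background.

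The members and the 42 gene lists (693 of 767 genes tested) were chosen with earlier results of these data known. Genes were named by rule: the 12 largest differences in each direction among called genes without overlap, up to 4 called members per list or the 2 brightest where none was called, mRNAs the study discusses with the receptors, the 6 largest differences of the diet effects in each direction and up to 4 genes called in opposite directions. Further list members were named to complete a list, after their values were seen. The labels give 4 separate livers per group. Replicate numbers were not taken to pair the samples. Alternatives were other background corrections, scalings, filters, probe summaries, fits, the replicate number as a block and leaving out each array. Some genes are not reported here, though they count among the genes tested and in the lists.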

Additional observations from a re-analysis of the deposited data

Results flagged for a closer look

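In single genes 1 array lay apart from the other 3 of its group (by Dixon's gap ratio), which chance gives in about 1 of 20 groups. Over 166 named genes and 2 groups this happened 17 times, which is close to that chance rate. In C+Fc-GLP-1 replicate 1 the log2 signal lay apart for Dhcr7 (3.66, the others 4.18 to 4.28). In C+Fc-GLP-1 replicate 2 the log2 signal lay apart for Edem1 (5.78, the others 4.33 to 4.55), Fgf21 (-1.0, the others 0.86 to 1.22), Klf6 (1.24, the others 0.64 to 0.74) and Lipn (0.19, the others -4.73 to -4.04). In C+Fc-GLP-1 replicate 3 the log2 signal lay apart for Got1 (5.11, the others 6.33 to 6.54). In C+Fc-GLP-1 replicate 4 the log2 signal lay apart for Calr (5.65, the others 6.67 to 6.80) and Ccnb1 (-5.87, the others -4.01 to -3.72). In M+Fc-GLP-1 replicate 1 the log2 signal lay apart for Bcl6 (3.44, the others 0.81 to 1.12) and Mmp2 (-1.59, the others -2.82 to -2.74). In M+Fc-GLP-1 replicate 2 the log2 signal lay apart for Cdkn2c (-1.66, the others 0.61 to 0.88), Cyp3a44 (-2.59, the others -0.38 to -0.04), Dpp4 (1.49, the others 3.02 to 3.23), Gpcpd1 (2.17, the others 2.75 to 2.83), Plin4 (3.47, the others 4.88 to 5.04) and Plin5 (6.51, the others 6.84 to 6.91). In M+Fc-GLP-1 replicate 3 the log2 signal lay apart for Got1 (7.80, the others 7.37 to 7.44).

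For 47 named genes the diet effect (MCD minus chow, log2) differed with and without Fc-GLP-1 in limma's interaction test (adjusted p between 0.001 and 0.047), and the values in brackets are the effect with Fc-GLP-1 minus the effect without it. The sign turned from higher without to lower with Fc-GLP-1, by fitted values, for Lcn2 (-5.65), F13a1 (-5.08), S100a8 (-4.43), Ccl2 (-4.40), Jchain (-3.85), Themis2 (-3.81), Ifitm6 (-3.74), Saa2 (-3.70), Saa1 (-3.60), Pnpla3 (-3.44), Il1b (-3.42), Folr2 (-3.08), Oasl1 (-2.70), Col3a1 (-2.41), Clec4f (-2.39), H2-Ab1 (-2.33), Oas2 (-1.98), Myl9 (-1.63) and Pmvk (-1.55). Not all of these were called on both sides. In limma Myl9 differed by 0.12 without Fc-GLP-1 (adjusted p = 0.81) and Lcn2 by -0.57 with it (adjusted p = 0.74). Other genes with a lower effect under Fc-GLP-1 were Cyp3a44 (-5.51), Vmn2r5 (-5.34), Arntl (-4.11), Pnpla5 (-3.51), Fasn (-2.62), Afp (-2.49), Fabp5 (-1.99), Chka (-1.94), C8a (-1.74), Apcs (-1.59), Dhcr7 (-1.55) and Cyp2c55 (-1.49). The effect was higher under Fc-GLP-1 for Pnpla2 (1.65), Por (1.69), Slco1a4 (1.73), Igfbp2 (1.80), Cd4 (1.89), Cyp3a25 (2.09), Pde6c (2.57), Plin4 (3.22), Gpcpd1 (3.40), Cux2 (3.48), Fcgbp (3.91), Lhx3 (3.93), Obp2a (4.36), Atp12a (4.45), Lipn (4.74) and Spink4 (4.91). For Cyp3a44, F13a1, Ifitm6, Lhx3, Obp2a, Pnpla3, Pnpla5, Spink4 and Vmn2r5 at least 1 of the 4 groups had no array well above background, so the fitted values are not exact sizes, and Vmn2r5 was above it in the MCD group only. The sign held under every alternative run, the call held under all of them for 19 of the 47 genes, and the call of Apcs, C8a, Ccl2, Cd4, Clec4f, Col3a1, Cyp2c55, Dhcr7, F13a1, Fabp5, Fcgbp, H2-Ab1, Igfbp2, Lhx3, Lipn, Myl9, Oas2, Obp2a, Pde6c, Pmvk, Pnpla2, Pnpla3, Pnpla5, Por, S100a8, Saa2, Slco1a4 and Spink4 was lost under at least 1. Treatment and slide cannot be told apart in these differences.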

How the results depend on the processing

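No gene called between M+Fc-GLP-1 and C+Fc-GLP-1 mice changed sign under any alternative, and of 132 called genes named by rule 81 were called under every one. The 2175 calls became 1430 with normexp and quantile normalisation (1234 shared), 1296 with the authors' normalised values (1067 shared) and 1361 when only the 8 arrays were fitted (1204 shared), and lay between 1528 and 2273 when single arrays were left out, lowest without C+Fc-GLP-1 replicate 2. Dim genes had smaller fitted differences under the first 2 of these (Cyp2b13 4.05 and 3.89, Ciart 2.16 and 1.97). The median of all genes was -0.22 with arrays centred on their median and 0.22 with no filter on dim probes. The 1290 genes whose diet effect differed with and without Fc-GLP-1 became 517 with normexp and quantile normalisation, 2557 with arrays centred on their median (median of all genes -0.47) and 668 with the authors' values, and lay between 643 and 1473 without single arrays, lowest without MCD replicate 1. After PH the 2692 calls became 1343 with the authors' values. The cause was not tested. Probes near background limit what can be measured: 147 called genes that rose and 76 that fell have only a bound.

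With the replicate number as a block 2276 genes were called (1922 shared), 1271 for the difference of the diet effects, 5661 without Fc-GLP-1 and 2643 after PH. Same-numbered deviations correlated at 0.13, 0.18, 0.03 and 0.13, and all 4 arrays correlated best with their own number, a hint from the data only. Numbers were not used to pair samples. Bcl6 (adjusted p = 0.0519), Clec4f (0.0551), Ifitm6 (0.0588), Got1 (0.0616) and Ppargc1a (0.0508) were among the calls lost under the block.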
